A study of Mus musculus with 72 samples.

Results

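Ctsg and Prtn3 are 2 of the 1224 genes that a pair of targeted amplicon panels measured in mouse tumours. They were picked by symbol because both had been seen to stand higher after bintrafusp alfa than in control tumours. That contrast therefore chose them, and it is given here as a description without a test. Each gene was read by 1 amplicon, and both amplicons belong to the immuno-oncology panel (panel 1, 992 amplicons).

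The tumours were 4T1, a mouse mammary carcinoma line, grown in female BALB/c mice aged 6 to 12 weeks. Cells were injected on day -6, treated on day 0 and collected as tumours on day 6. The injection site was the thigh muscle in the study's design text, whereas the labels of the samples read orthotopic tumour. Bintrafusp alfa (M7824, here BA) is a fusion protein that blocks PD-L1 and traps TGF-β.

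The control group received 400 µg of an isotype antibody. The BA group received 492 µg of BA. The radiation group (RT) was irradiated and also received isotype antibody, and the BA+RT group received both treatments. Each group held 9 mice, with 1 tumour per mouse. No engineered allele is named for any group, and neither dose nor schedule of the radiation is known here.

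Cathepsin G (Ctsg) and proteinase 3 (Prtn3) are serine proteases of the chymotrypsin family that are stored in the primary (azurophil) granules of neutrophils. Their genes are transcribed mainly in promyelocytes in the bone marrow, under factors such as PU.1, C/EBP and Myb, and their transcripts are scarce in mature neutrophils. Cathepsin C removes an activating dipeptide from both enzymes, as it does from the granzymes of cytotoxic lymphocytes. In mice, Ctsg lies in the gene cluster on chromosome 14 that also holds granzyme B (Gzmb) and the mast cell chymases, and mast cells can also make cathepsin G. Prtn3 lies beside the neutrophil elastase gene on chromosome 10.

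The sequences below show what was counted, because a granule protease amplicon could share bases with its relatives. Both amplicons fall in the coding part of exon 5 of 5 of their gene on GRCm38. The Ctsg amplicon (ENSMUSG00000040314) is 91 bases long on the minus strand at chr14:56099983-56100073, with 45.1% G or C. The Prtn3 amplicon (ENSMUSG00000057729) is 92 bases long on the plus strand at chr10:79882860-79882951, with 55.4% G or C. Both are printed 5′ to 3′ along the transcript.

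Ctsg amplicon: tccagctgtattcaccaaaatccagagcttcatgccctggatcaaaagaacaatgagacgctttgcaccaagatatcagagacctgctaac
Prtn3 amplicon: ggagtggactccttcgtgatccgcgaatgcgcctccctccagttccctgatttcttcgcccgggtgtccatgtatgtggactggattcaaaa

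The 2 amplicons were identical at 33 of 93 aligned columns (35.5%). Each whole amplicon was found in the transcripts of 1 gene only. The nearest other gene was Gzmb for the Ctsg amplicon, with 36 identical bases over a 46-base alignment, and Prss30 for the Prtn3 amplicon, with 38 over 46.

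The 250 bases before each start are shown because the proteases are known PU.1 targets in immature myeloid cells. The sequences are those of RefSeq on GRCm38.p6 and not of the BALB/c genome, and capitals mark the PU.1 core GAGGAA. The Ctsg stretch is chr14:56102575-56102824 on the minus strand, and the Prtn3 stretch is chr10:79879417-79879666 on the plus strand.

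Ctsg upstream: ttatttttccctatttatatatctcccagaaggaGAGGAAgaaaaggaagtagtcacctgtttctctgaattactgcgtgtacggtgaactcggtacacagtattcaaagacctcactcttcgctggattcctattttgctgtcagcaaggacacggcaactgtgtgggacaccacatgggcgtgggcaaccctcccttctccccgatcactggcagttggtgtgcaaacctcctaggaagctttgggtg
Prtn3 upstream: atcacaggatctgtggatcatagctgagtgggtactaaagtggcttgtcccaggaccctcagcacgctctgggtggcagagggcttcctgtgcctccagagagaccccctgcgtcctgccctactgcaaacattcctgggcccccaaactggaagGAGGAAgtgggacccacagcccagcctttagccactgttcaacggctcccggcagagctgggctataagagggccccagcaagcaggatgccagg

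GAGGAA, searched on both strands, occurred once before each gene, its first base at position -216 for Ctsg and -95 for Prtn3, and it occurred in 23.3% of 32851 mouse promoter windows of the same length. The Myb letters AACNG occurred 3 times in each, against 74.2% of all windows with at least 1. The C/EBP letters TTNNGNAA occurred in neither window and in 36.8% of all windows. The RUNX letters TGTGGT occurred once before Ctsg and not before Prtn3 (14% of windows). The Smad box CAGAC, the letters that Smad proteins bind downstream of TGF-β, occurred in neither window and in 42.2% of all windows. These matches describe letters and not binding.

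Panel 1 libraries held 959532 to 2616197 counts per mouse. The mean was 1394018 ± 248885 counts (SD, n = 9) in BA and 1949641 ± 350859 in RT, so the group with the highest protease levels had the shallowest libraries. Levels are CPM, the counts of a gene scaled to a common total of panel counts, after TMM scaling. A level is thus a share of the genes on the panel, not of all RNA, and levels of different amplicons cannot be set against each other. In these bulk samples, more cells of a type and more RNA per cell cannot be told apart. The labels mark the mice as separate animals and give no batch. The epithelial tumour marker Epcam was present in all 36 tumours, at 4173 to 14439 CPM.

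Ctsg was high in the tumours given BA alone and, with 1 exception, had few or no counts in the other tumours. The control tumours had 0 to 13 Ctsg counts (lowest 0, median 1.91 and highest 6.30 CPM). The BA tumours had 41 to 111 counts (lowest 24.8, median 39.7 and highest 93.7 CPM). The control and BA ranges did not overlap, as was so, with BA higher, for 1.06% of all genes tested.

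In RT tumours Ctsg had 0 to 6 counts (lowest 0, median 1.19 and highest 2.71 CPM). In BA+RT tumours it had 0 to 57 counts (lowest 0, median 1.74 and highest 28.3 CPM). The value of 28.3 CPM belongs to BA+RT mouse 40, which carried 60.6% of all 94 Ctsg counts of its group and was the only BA+RT tumour within the range of the BA group. The other 8 BA+RT tumours lay between 0 and 6.66 CPM, overlapping control and RT. Control mouse 6, RT mouse 24 and BA+RT mouse 42 had no Ctsg count, which allows a level of up to 2.80, 1.79 and 1.60 CPM (3 counts, counting error only).

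As group means, Ctsg stood at 2.14 ± 1.97 CPM in control, 48.6 ± 21.1 in BA, 1.19 ± 0.810 in RT and 5.22 ± 8.93 in BA+RT (SD, n = 9 each). Without mouse 40 the BA+RT mean was 2.34 ± 2.33 CPM (n = 8). The order of the means was thus BA, BA+RT, control and RT, and BA stood clear of BA+RT apart from mouse 40, while BA+RT and control, and control and RT, did not differ beyond the spread of the mice.

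Prtn3 was detected in every tumour. Control tumours had 26 to 108 counts (lowest 20.5, median 34.5 and highest 72.9 CPM). BA tumours had 85 to 260 counts (lowest 71.8, median 125 and highest 194 CPM). Of the 9 BA tumours 8 lay above all controls, and BA mouse 15 lay just below the highest control.

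In RT tumours Prtn3 had 37 to 109 counts (lowest 18.6, median 25.4 and highest 51.1 CPM). In BA+RT tumours it had 56 to 134 counts (lowest 31.8, median 49.3 and highest 67.1 CPM). The RT and BA+RT ranges overlapped, with 4 of 9 BA+RT tumours above every RT tumour. Every BA+RT tumour lay below every BA tumour, as was so for 5.11% of all genes tested.

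The Prtn3 means were 39.3 ± 17.1 CPM in control, 132 ± 38.9 in BA, 29.8 ± 9.83 in RT and 51.3 ± 13.9 in BA+RT (SD, n = 9 each). The order of the group means was the same as for Ctsg. BA+RT lay wholly within the range of control, control and RT also overlapped, and BA stood above all 3 but for its lowest tumour, which the highest control exceeded. Prtn3 varied less between mice than Ctsg: the SD was 27.1% to 43.5% of the mean for Prtn3 and 43.4% to 171% for Ctsg, whose low counts add counting error.

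**Figure D1:**
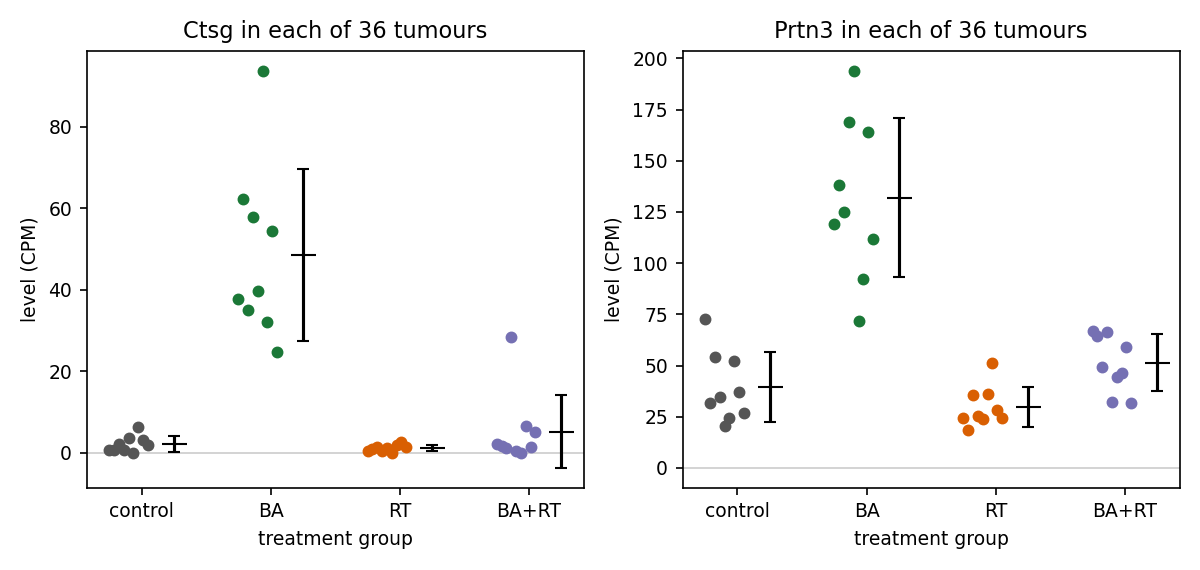
Level of Ctsg (left) and Prtn3 (right) in CPM of panel 1, with 1 point per tumour in the 4 treatment groups and the mean and SD (n = 9) as a black bar. The BA tumours sit at 24.8 to 93.7 CPM for Ctsg and 71.8 to 194 for Prtn3; 1 BA+RT tumour, mouse 40, stands at 28.3 CPM for Ctsg.

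Of 1038 genes that passed the filter on low counts, Ctsg had the highest fold change in BA against control and Prtn3 the ninth. Ctsg passed that filter only through the BA group: 9 of 9 BA tumours reached 10 counts, against 1 control, 0 RT and 2 BA+RT tumours. Prtn3 reached 10 counts in all 9 tumours of each group. The log2 fold change was 4.34 (SE 0.57) for Ctsg, a 20.3-fold difference, and 1.74 (SE 0.22) for Prtn3, a 3.34-fold difference. In this contrast 12.5% of all genes tested were called higher and 14.5% lower. Because the contrast chose the members, nothing is read from these shares.

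Whether BA also moved the proteases in irradiated tumours was asked in BA+RT against RT, the only contrast of these 2 genes that shares no mouse with the contrast that chose them. Prtn3 rose by 0.78 on the log2 scale (SE 0.22, interval 0.35 to 1.22), a 1.72-fold difference, with an adjusted p of 0.0195 in edgeR's quasi-likelihood test. All 9 BA+RT tumours lay above the RT mean. An exact two-sided permutation test over the 18 mice gave a difference of 0.77 in mean log2 CPM with p = 0.00197, and 0.72 with p = 0.00399 without mouse 40.

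Ctsg had a log2 fold change of 2.04 in the same contrast (SE 0.65, interval 0.77 to 3.31), with an edgeR adjusted p of 0.0358. This p is no support for a change in Ctsg, because Ctsg entered the test only through the BA group and the value rests on 1 tumour. Without mouse 40 the log2 fold change was 0.90 (SE 0.56) with an adjusted p of 0.344. The exact permutation test of log2 CPM gave a difference of 0.76 with p = 0.143, and 0.39 with p = 0.287 without mouse 40.

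Of the 2 members, Prtn3 held its call in BA+RT against RT, where 10.8% of all genes tested were called in either direction, 3.66% higher and 7.13% lower. No gene had a higher range in BA+RT that did not overlap that of RT (0% of genes tested).

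Mouse 40 stood apart in lymphocyte genes as well. Its tumour had 579 CPM of Gzmb, against 40.5 to 117 in the other 8 BA+RT tumours. It had 108 CPM of perforin (Prf1, the pore former of cytotoxic granules), against 8.29 to 20.5. It also ranked first of 9 for Igkc, the immunoglobulin kappa constant chain, with 49.2 CPM against a median of 4.37 in the others.

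The primary granule and mast cell genes given here were not raised in that tumour in the same way. Prtn3 was 66.6 CPM in mouse 40 and 31.8 to 67.1 in the others, and myeloperoxidase (Mpo), a primary granule enzyme, was 0.994 CPM against 0 to 1.11. Each ranked 2 of 9. The formyl peptide receptor Fpr2, a myeloid surface gene, was highest of its group in mouse 40, at 425 CPM beside a group median of 259. The mast cell carboxypeptidase Cpa3 ranked 8 of 9 there, at 34.3 CPM against 31.0 to 108. The part of the lymphocyte genes in the Ctsg value of mouse 40 was not tested.

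The remaining contrasts share control or BA mice with the one that chose the members and are described only. In RT against control the log2 fold change was -0.87 for Ctsg (interval -2.31 to 0.58) and -0.40 for Prtn3 (interval -0.84 to 0.04). In BA+RT against control it was 1.17 for Ctsg (interval -0.04 to 2.37) and 0.38 for Prtn3 (interval -0.05 to 0.82). Without mouse 40 the Ctsg value in BA+RT against control was 0.03 (SE 0.54).

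In BA+RT against BA the log2 fold change was -3.17 (SE 0.51) for Ctsg and -1.36 (SE 0.22) for Prtn3. For Ctsg 8 of 9 BA+RT tumours lay below all BA tumours, and for Prtn3 all 9 did. The interaction, which is the effect of BA with radiation minus its effect without, was -2.31 (interval -4.16 to -0.45) for Ctsg and -0.96 (interval -1.57 to -0.34) for Prtn3. Without mouse 40 the Ctsg values were -4.30 (SE 0.44) in BA+RT against BA and -3.44 (SE 0.76) in the interaction. On this scale the BA difference was smaller in irradiated tumours for both genes. Both members were chosen for a high level in BA against control, and both of these contrasts subtract the BA level. The choice itself thus favours negative values here, and no effect of radiation is read from them. Over all genes tested, 4.91% were called lower in the interaction, and nothing is read from that share.

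**Figure D2:**
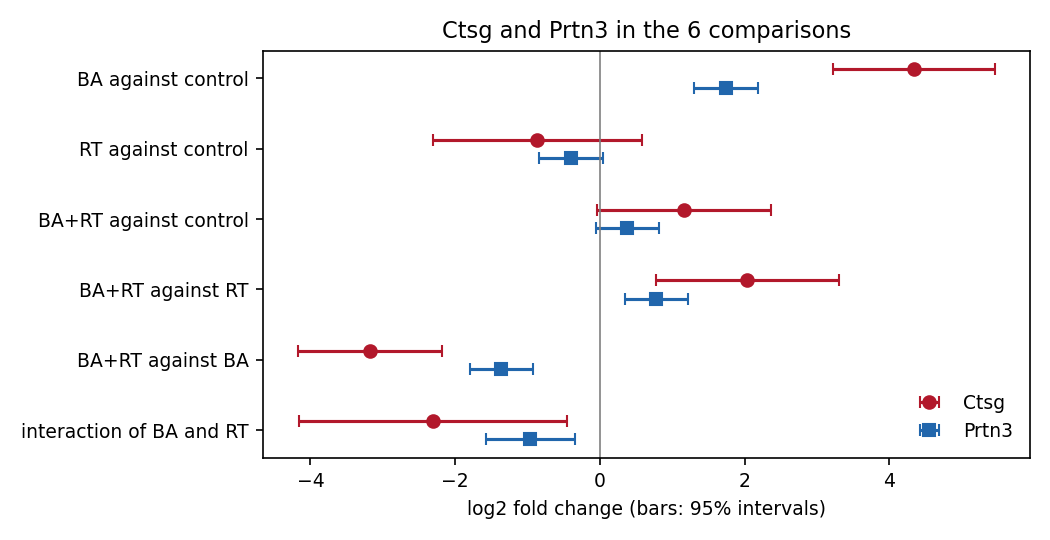
Log2 fold change of Ctsg (circles) and Prtn3 (squares) in 5 pairwise contrasts and the interaction, with bars of 95% intervals (SE from the fit). Of these contrasts BA+RT against RT was tested, and its Ctsg value of 2.04 falls to 0.90 without mouse 40.

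The proteases shared the order of their group means but not of their medians: for Ctsg the control median (1.91 CPM) exceeded that of BA+RT (1.74 CPM). The ratio between the proteases differed between groups. The number of Ctsg counts per Prtn3 count had a median of 0.0417 in control (range 0 to 0.171), 0.331 in BA (range 0.204 to 1.31), 0.0377 in RT (range 0 to 0.0952) and 0.0270 in BA+RT (range 0 to 0.425). The BA group stood above control and RT without overlap, and mouse 40 was the only BA+RT tumour within the BA range. BA mouse 15 had the highest Ctsg level of its group (93.7 CPM) together with the lowest Prtn3 level (71.8 CPM).

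Within groups, Pearson's r between log2 CPM of the 2 genes was 0.15 in control, -0.13 in BA, 0.11 in RT and 0.29 in BA+RT (n = 9 each, exact permutation test, adjusted p = 0.772 for each of the 4 groups). Spearman's rho was 0.18, 0.22, 0.23 and 0.35 in the same order (exact permutation, adjusted p = 0.644 for each). After leaving out the 2 tumours farthest from the median Ctsg level, r was -0.40, 0.57, 0.58 and -0.02 (n = 7 each). With 9 tumours and few Ctsg counts outside BA, no relation was detectable within a group, which does not show that there is none.

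**Figure D3:**
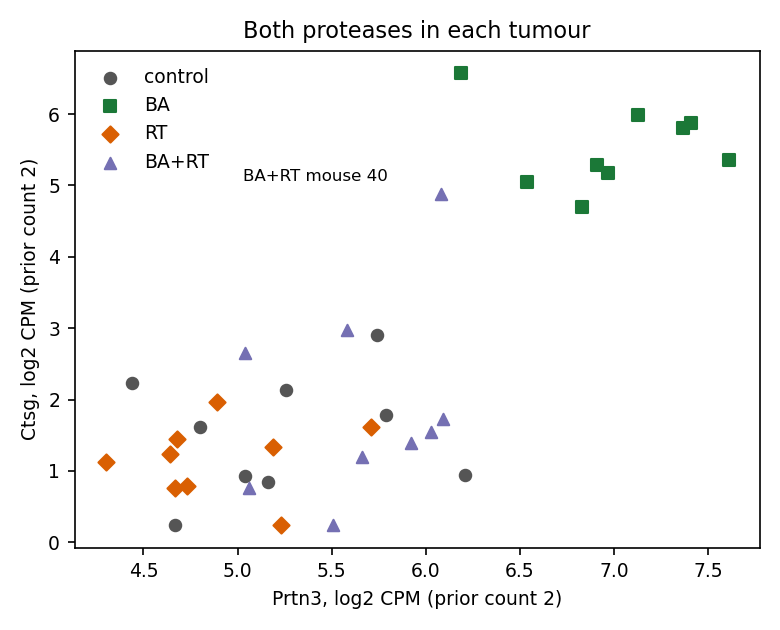
Log2 CPM (prior count 2) of Ctsg against Prtn3, with 1 point per tumour and a symbol for each of the 4 groups. The BA tumours form the upper right cluster and mouse 40 is the BA+RT tumour nearest to it; within each group the points show no detectable slope.

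The genes that moved most like each protease inside the groups were different. Likeness was the Pearson r between deviations of log2 CPM from the group means over 36 mice, among 793 panel 1 genes, so that the group differences play no part; it is a description, and the points share their libraries. The 5 genes most like Ctsg were Fyb (r = 0.65), Il2rg (0.65), Sh2d2a (0.64), Gzmb (0.64) and Prf1 (0.60). Fyb and Sh2d2a encode adaptors of T cell signalling, Il2rg the common gamma chain of interleukin receptors. Without mouse 40 these values were 0.55, 0.48, 0.54, 0.46 and 0.41. The log2 SD of Ctsg was 1.40 in BA+RT and 0.84 in control, where the median was 3 counts. It was 0.57 in BA, where the median was 58 counts, and 0.51 in RT. Each r with Ctsg, here and for the gene lists, thus rests largely on tumours with few Ctsg counts.

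The 5 genes most like Prtn3 were Selplg (r = 0.60), Siglece (0.60), Ifi30 (0.60), Arg1 (0.58) and Ifngr1 (0.57). Selplg encodes the P-selectin ligand of leukocytes, Siglece an inhibitory lectin of mouse myeloid cells, Ifi30 a lysosomal thiol reductase, Arg1 arginase and Ifngr1 a chain of the interferon gamma receptor. Without mouse 40 they ranged from 0.56 to 0.59. Between Ctsg and Prtn3 the same measure was 0.14, which placed Prtn3 at rank 235 among the genes most like Ctsg.

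The gene lists differed in the same measure. For the 8 cytotoxic granule genes on panel 1 the median r was 0.52 with Ctsg (0.32 without mouse 40) and -0.08 with Prtn3. For 9 T cell genes it was 0.28 with Ctsg (0.09 without mouse 40) and 0.22 with Prtn3 (0.18 without), and all 9 were positive with both. For 11 neutrophil surface and cytosol genes it was 0.15 with Ctsg (0.08 without mouse 40) and 0.37 with Prtn3. For 9 mast cell and basophil genes it was -0.16 with Ctsg (-0.06 without mouse 40) and -0.19 with Prtn3, beside a median of 0.00 over all 792 other genes for either protease.

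Gzmb was also the nearest other match of the Ctsg amplicon, so the 2 counts were set side by side. The ratio of Ctsg to Gzmb counts was not constant: its median was 0.0769 in control, 0.211 in BA, 0.0274 in RT and 0.0286 in BA+RT. Control mouse 8, with 171 Gzmb counts, had 5 Ctsg counts, and RT mouse 25, with 154, had 4. BA+RT mouse 40, with 1166 Gzmb counts, had 57, and the ratios of its group ran from 0 to 0.0667. Any share of Gzmb reads in the Ctsg counts was not tested. In BA the lowest ratio was 0.0801, in the tumour with 512 Gzmb counts.

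**Figure D4:**
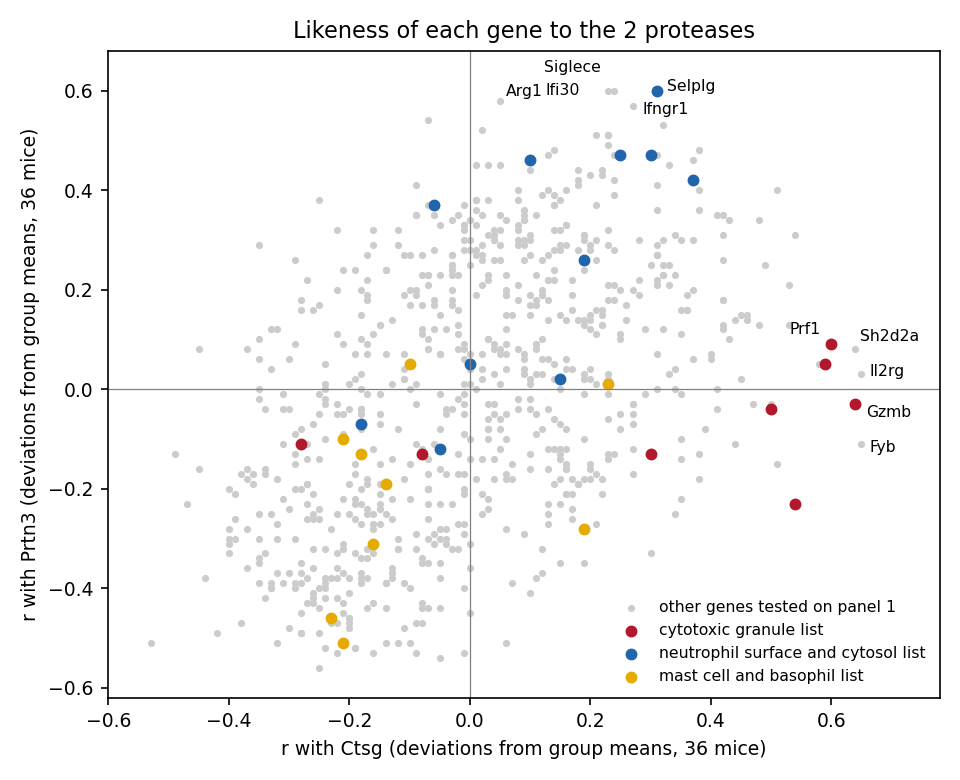
Pearson r of each of 792 panel 1 genes with Ctsg (horizontal) and with Prtn3 (vertical), from deviations from group means over 36 mice. Cytotoxic granule genes (red) run from -0.28 to 0.64 with Ctsg and from -0.23 to 0.09 with Prtn3. Neutrophil genes (blue) run from -0.18 to 0.37 with Ctsg and from -0.12 to 0.60 with Prtn3.

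Other genes of the granule and of the cells that carry it were read from lists chosen with earlier results of these data known. Over all genes tested, 12.5% were called higher and 14.5% lower in BA against control. In BA+RT against RT these shares were 3.66% and 7.13%. The primary granule list also holds the activator and inhibitors of the proteases. In it, 2 genes besides the members were tested and neither was called in BA against control or BA+RT against RT. They were cathepsin C (Ctsc, the activator of both proteases) at 0.19 (SE 0.11) and -0.17 (SE 0.11), and the antiprotease Serpina1a at 0.49 (SE 0.37) and -0.24 (SE 0.38). Mpo was too low to test, with 28 counts in all control, 63 in all BA, 3 in all RT and 8 in all BA+RT tumours. Besides the members and their activator, no enzyme of the primary granule was thus tested. BA mouse 13 alone had 60 of the 63 BA counts, so Mpo was at or near 0 in the other BA tumours, where Ctsg was high. Neutrophil elastase was not analysed here.

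Of 4 secondary and tertiary granule genes, 2 were called higher, 1 lower and 1 not called in BA against control. The gelatinase Mmp9 fell by 2.26 in log2 (SE 0.17, edgeR adjusted p = 1.73e-12), and fell by 1.61 in BA+RT against RT (SE 0.16, adjusted p = 1.06e-08). Cybb, a subunit of the phagocyte NADPH oxidase, rose by 0.36 (adjusted p = 0.0400, up to 0.0921 and lost in 14 of 36 fits that each left out 1 mouse) and Arg1 by 0.47 (adjusted p = 0.000628) in BA against control. Neither was called in BA+RT against RT, at -0.23 and -0.17. The list median was 0.42 in BA against control and -0.20 in BA+RT against RT, beside 0.00 and 0.01 over all genes.

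Of 12 neutrophil surface and cytosol genes, 5 were called higher and 0 lower in BA against control, beside 12.5% and 14.5% of all genes tested. The 5 were the formyl peptide receptors Fpr1 (1.14, SE 0.24) and Fpr2 (1.08, SE 0.15), the integrin chains Itgam (0.56, SE 0.10) and Itgb2 (0.64, SE 0.09), and Selplg (0.59, SE 0.11). None of these 5 was called in BA+RT against RT, where their values ran from -0.13 to 0.10. The 1 gene called there was Fcgr3, an Fc receptor, which fell by 0.38 (SE 0.09, edgeR adjusted p = 0.00620). The alarmin S100a8 was not called in either contrast, at -0.43 (SE 0.32) and -0.39 (SE 0.32). The 7 genes not called in BA against control ran from -0.43 to 0.32. Among them were the receptors Cxcr2 (-0.40, SE 0.17), Csf3r (-0.07, SE 0.12) and Il1r2 (-0.10, SE 0.15).

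Mast cells, another known source of cathepsin G, were read from 9 tested genes of a list that also holds basophil genes. In BA against control 0 were called higher and 1 lower, the histidine decarboxylase Hdc (-0.67, SE 0.22, edgeR adjusted p = 0.0198, and 0.0594 without control mouse 6). In BA+RT against RT none was called. Cpa3 had 34.1 ± 22.6 CPM in control and 38.3 ± 14.4 in BA, and the tryptase Tpsab1 112 ± 88.0 and 163 ± 81.7 (SD, n = 9). The chymase Cma1 had 1.96 ± 1.78 and 1.20 ± 0.864 CPM, with 2 of 9 tumours at 0 in each group. The summed level of the 13 mast cell and basophil genes ranged from 436 to 869 CPM in control and from 412 to 745 in BA. Such a sum, here or for another list, is weighted to the amplicons with the highest levels and does not measure the number of cells.

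Of 7 tested progenitor and maturation genes, 2 were called higher and 1 lower in BA against control. The factor Cebpb rose by 0.52 (SE 0.09) and Id2 by 0.44 (SE 0.08), and the progenitor antigen Cd34 fell by 0.41 (SE 0.12). Which cells of the bulk tumours carried these transcripts was not tested. In BA+RT against RT Id2 rose by 0.28 (SE 0.08, edgeR adjusted p = 0.0227; 0.0501 without mouse 40, and also lost without RT mouse 19, 23 or 26) and Cd34 fell by 0.45 (SE 0.12, adjusted p = 0.0126).

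**Figure D5:**
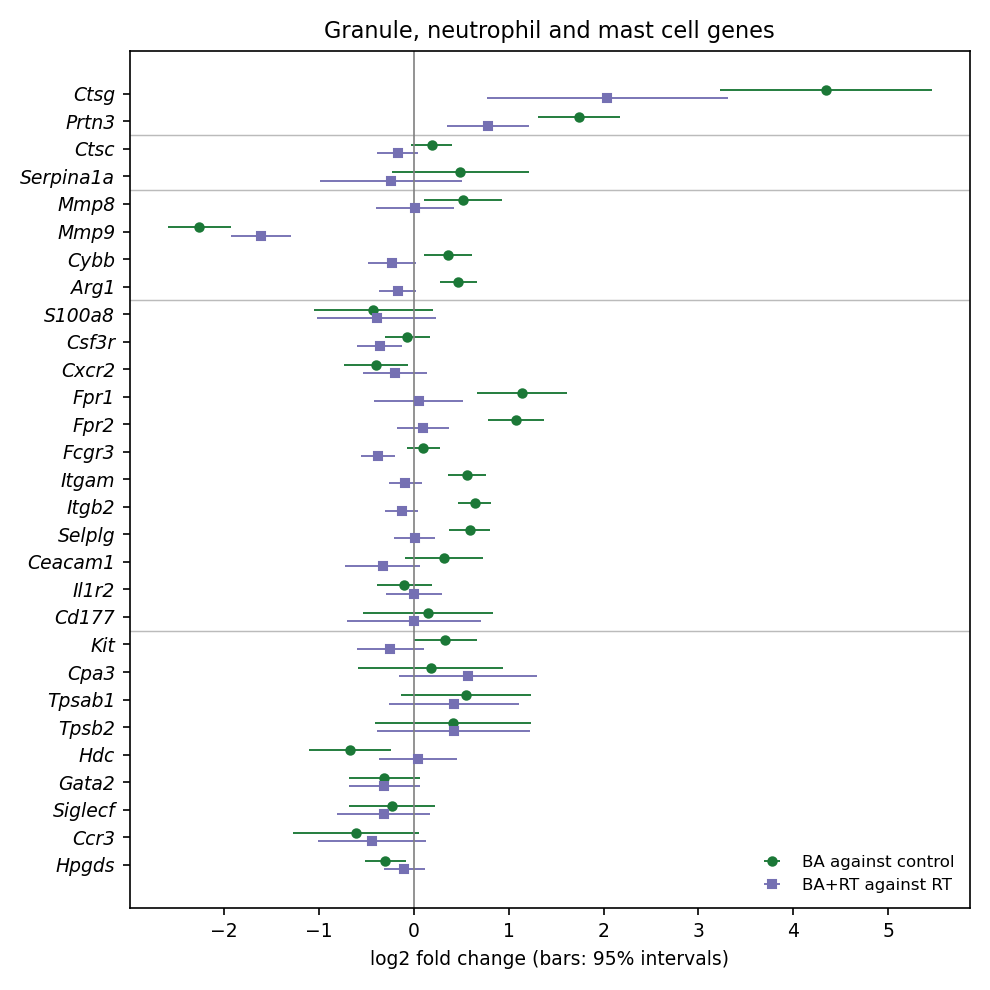
Log2 fold change in BA against control (green circles) and BA+RT against RT (purple squares) for both proteases, with bars of 95% intervals (SE from the fit). Below the lines are Ctsc and Serpina1a of the primary granule list, then secondary and tertiary granule, neutrophil, and mast cell and basophil genes. Ctsg and Prtn3 stand to the right of all other genes shown in BA against control, the contrast that chose them. Mmp9 lies far to the left in both contrasts.

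Markers of other cells moved in the same contrasts. Of 8 cytotoxic granule genes, 5 were called higher in BA against control and 4 in BA+RT against RT, with list medians of 1.97 and 1.19. Prf1 rose by 2.37 (SE 0.50), Gzmb by 1.89 (SE 0.47) and Gzma by 1.58 (SE 0.44) in BA+RT against RT. Without mouse 40, 1 of the 8 was called there: Prf1 was 1.62 (SE 0.40, edgeR adjusted p = 0.00892), Gzmb 1.14 (SE 0.38, adjusted p = 0.0501) and Gzma 0.90 (SE 0.37, adjusted p = 0.117), with a list median of 0.70. The summed level of the 9 T cell genes had a median of 48.5 CPM in control (highest 193) and 159 in BA (highest 360), and 4 of 9 were called higher in BA against control (1 of them, Cd28, lost its call in 6 of 36 fits that each left out 1 mouse) and 0 in BA+RT against RT.

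Among 7 monocyte and macrophage genes, 3 were called higher and 1 lower in BA against control, and 0 higher and 3 lower in BA+RT against RT. The last 3 were the scavenger receptor Msr1 (-0.40, SE 0.09), the endotoxin co-receptor Cd14 (-0.37, SE 0.12) and the lysosomal protein Cd68 (-0.25, SE 0.06). The Cd14 call was lost in 10 of 36 fits that each left out 1 mouse, with adjusted p up to 0.0951. The 1 tested B cell gene, Igkc, was not called in either. None of the 7 tested attractants and growth factors of neutrophils was called in either contrast, among them the chemokines Cxcl3 (-0.65, SE 0.36 in BA against control) and Ppbp (-0.71, SE 0.34). The part of these cell types in the protease levels was not tested.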

How the data were processed

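Total RNA of 36 tumours was read with a pair of targeted Qiagen amplicon panels, per the labels' protocols. The authors deposited raw read counts per amplicon and regularized log2 values. The tool DESeq2 is named in the submitters' processing notes without a version. The sources used here do not give the aligner, the counter or any use of molecular barcodes, so counts may include PCR copies. The limit given for a count of 0 covers counting error only. Amplicon positions match GRCm38.

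Counts as deposited were fitted with edgeR 4.0.16 in R 4.3.3: each panel alone, low genes filtered by group, TMM factors, robust quasi-likelihood fits of all 4 groups without covariates, and Benjamini-Hochberg adjustment over 1038 genes, called below 0.05. CPM use the same factors, and log2 CPM a prior count of 2. Intervals are 1.96 standard errors of that fit and include the spread between mice. Genomic amplicon control reads were 19 counts in all.

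Promoters came from RefSeq (GRCm38.p6) and amplicon matches from blastn 2.17.0. The fit was also run on simulated counts with the same spread for every gene and no outlying tumour. That run cannot test the Ctsg value, which rests on mouse 40. Members and gene lists were chosen with earlier results of these data known. The text names all members, genes of the granule, neutrophil, mast cell and progenitor lists called in BA against control or BA+RT against RT, at most 3 genes of each other list by size of change, and 5 genes per member by likeness. Ctsc, Serpina1a, Mpo, S100a8, Cxcr2, Csf3r, Il1r2, Cpa3, Tpsab1, Cma1, Cd68, Cd28, Igkc and Epcam were named after their values were seen.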

Additional observations from a re-analysis of the deposited data

Results flagged for a closer look

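In BA+RT tumours, the Ctsg level of mouse 40 (28.3 CPM) and its Ctsg counts per Prtn3 count (0.425) lay far from the other 8 by Dixon's test. In BA tumours the ratio of mouse 15 (1.31) did so, against 0.450 for the next tumour. Mpo stood apart in control mouse 7 (8.24 CPM) and BA mouse 13 (59.9 CPM). Dixon's test was run on 16 sets of 9 tumours, and chance gives about 1 in 20 where values have a normal spread. Levels and ratios with many values at or near 0 need not have one, so chance may flag more.

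For 8 granule and neutrophil genes the effect of BA differed between irradiated and unirradiated tumours by edgeR's interaction test. They were 2 of 4 secondary and tertiary granule genes and 6 of 12 neutrophil surface and cytosol genes. Of 7 monocyte and macrophage genes, 3 were also called lower, so the trait was not particular to the first lists. The log2 interaction was -1.09 for Fpr1, -0.98 for Fpr2, -0.77 for Itgb2, -0.65 for Itgam and -0.64 for Arg1. It was -0.59 for Cybb, -0.58 for Selplg and -0.48 for Fcgr3. The calls of Fpr1 (edgeR adjusted p = 0.0397) and Cybb (adjusted p = 0.0445) lay near the threshold. Over all genes tested 4.91% were called lower in this interaction.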

How the results depend on the processing

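Prtn3 in BA+RT against RT kept its direction and its call in 8 other settings (DESeq2, other scalings, no filter, fewer groups, deposited log2 values, 2 mice left out, permutation) and with each of the 36 mice left out, from 0.72 to 0.92 with adjusted p from 0.00560 to 0.0399. Ctsg in that contrast lost its call in 7 of 36 such fits, from 0.90 to 2.28 with adjusted p from 0.0205 to 0.344, the lowest without BA+RT mouse 40. It also lost it with the deposited log2 values (0.24), without control mouse 8 and BA+RT mouse 40 together (0.90), and in the permutation test (0.76). The last 2 settings were chosen after seeing the data.

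With the deposited log2 values, which are shrunken, Ctsg was 1.60 in BA against control, -0.12 in RT against control, -1.48 in BA+RT against BA and -1.36 in the interaction, and Prtn3 was 1.01 in BA against control and -0.79 in BA+RT against BA. Leaving out single mice gave Ctsg values from -4.30 to -3.01 in BA+RT against BA and from -3.44 to -2.06 in the interaction, the lowest of each without BA+RT mouse 40. Without mice 8 and 40 they were -4.31 and -3.50, and 151 genes instead of 86 were called in the interaction. Scaling to reference genes shifted the median of all genes by 0.19 in RT against control, 0.14 in BA+RT against control and 0.20 in BA+RT against BA. Fits of only the 2 groups compared gave no value for Ctsg where BA was not one of them, since it failed the filter there. Of 5148 list counts and mean levels under alternatives, 201 moved. No paired analysis was possible because the mouse numbers are not shared between groups. Low Ctsg counts outside BA limit every comparison of Ctsg between the other groups, and 1 amplicon per gene leaves primer effects unmeasured.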
